A study of Homo sapiens with 11 samples.

Results

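Genes for cholesterol and fatty acid synthesis were followed across 11 Affymetrix arrays of MV4-11, an established human acute myeloid leukaemia line. The 28 genes were chosen from a list of known members of the 2 pathways: 17 of the sterol branch, 7 of the fatty acid branch, and 4 regulators and transport genes. Of these, 25 had a transcript cluster (the probes that together measure one transcribed locus) annotated with that gene symbol alone, and the cluster with the highest mean was taken for each gene. The level filter, a log2 level of at least 3.80 on some array, left 24 of them among the 12147 genes tested in all: 14 of the sterol branch, 6 of the fatty acid branch and all 4 regulators and transport genes. HSD17B7, a sterol reductase, read between 2.60 and 3.29 and was not tested. FDFT1, CYP51A1 and FADS1 were not analysed here, because no cluster carried their symbol alone.

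Each condition had 1 array. The 8 knockdown arrays came from cells transduced with shRNA and kept with 3 µM doxycycline for 24 hours, the luciferase control (shLuc) included. They held shRNAs against RUNX1, RUNX2 and RUNX3 singly, in the 3 pairs and all together (the triple knockdown), so each RUNX shRNA was on 4 arrays and absent from 4. For the other 3 arrays, cells were exposed for 6 hours to DMSO or to 1 µM of Chb-M' or Chb-50, which the series calls alkylating PIP conjugates (pyrrole-imidazole polyamides, which bind DNA in the minor groove, joined to a DNA-alkylating group). The series asks what expression changes follow the knockdowns and the conjugates. Whether a measured shift came from less RNA per cell or from fewer cells of one state cannot be told apart in bulk RNA.

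Both pathways start from acetyl-CoA. The sterol branch runs through mevalonate, isoprenoid diphosphates, squalene and lanosterol to cholesterol, and the fatty acid branch builds palmitate and then lengthens and desaturates it. Many of these genes are switched on by the sterol regulatory element-binding proteins, encoded by SREBF1 and SREBF2, which are held in the endoplasmic reticulum by INSIG proteins when sterols are plentiful and are cut and sent to the nucleus when sterols run low. SREBF2 is known mainly for driving sterol genes and SREBF1 for driving fatty acid genes, and the NF-Y complex often binds beside them.

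The median log2 level of an array, over genes that passed the filter, was 5.86 to 5.91. Of 7 myeloid markers fixed for the check, 6 had a cluster and all 6 were tested, at levels from 3.84 (ITGAM) to 11.6 (LYZ), whereas the 4 measured markers of other lineages read from 1.85 to 3.17 and none passed the level filter. RUNX2 read 5.56 to 5.82 on the arrays with its shRNA and 6.00 to 6.30 on the others of the knockdown set. RUNX3 read 7.65 to 7.87 with its shRNA and 7.70 to 8.37 without it, because the array labelled shRUNX1 read 7.70. RUNX1 had only a cluster that another symbol shares, which read 3.96 to 4.26 with its own shRNA and 4.20 to 4.45 without it, and the array labelled shRUNX1+shRUNX2 read 4.26. Estimates past the unadjusted threshold in the fits of the RUNX1 shRNA, the RUNX3 shRNA and their product term are therefore also given without each of these 2 arrays.

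Within each branch, genes differed in how widely their level ranged over the arrays. Over the 8 knockdown arrays, SCD, which puts the first double bond into saturated fatty acids, spanned 1.01 log2 units, from 8.13 to 9.14 with a median of 8.88. ACAT2, which joins acetyl-CoA units at the head of the sterol branch, spanned 0.87, from 6.33 to 7.20 with a median of 6.78. SQLE, which oxidises squalene, spanned 0.86, from 7.14 to 8.00 with a median of 7.68. FADS2, a desaturase of polyunsaturated fatty acids, spanned 0.80, from 5.00 to 5.80 with a median of 5.52. These 4 genes, from both branches, had the widest ranges of the 24. At the other end, PMVK, the second kinase of the mevalonate steps, spanned 0.21, ACLY, which makes cytosolic acetyl-CoA from citrate, spanned 0.26, and DHCR7, which closes cholesterol synthesis, spanned 0.27. FASN, which assembles palmitate, spanned 0.43.

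**Figure D1:**
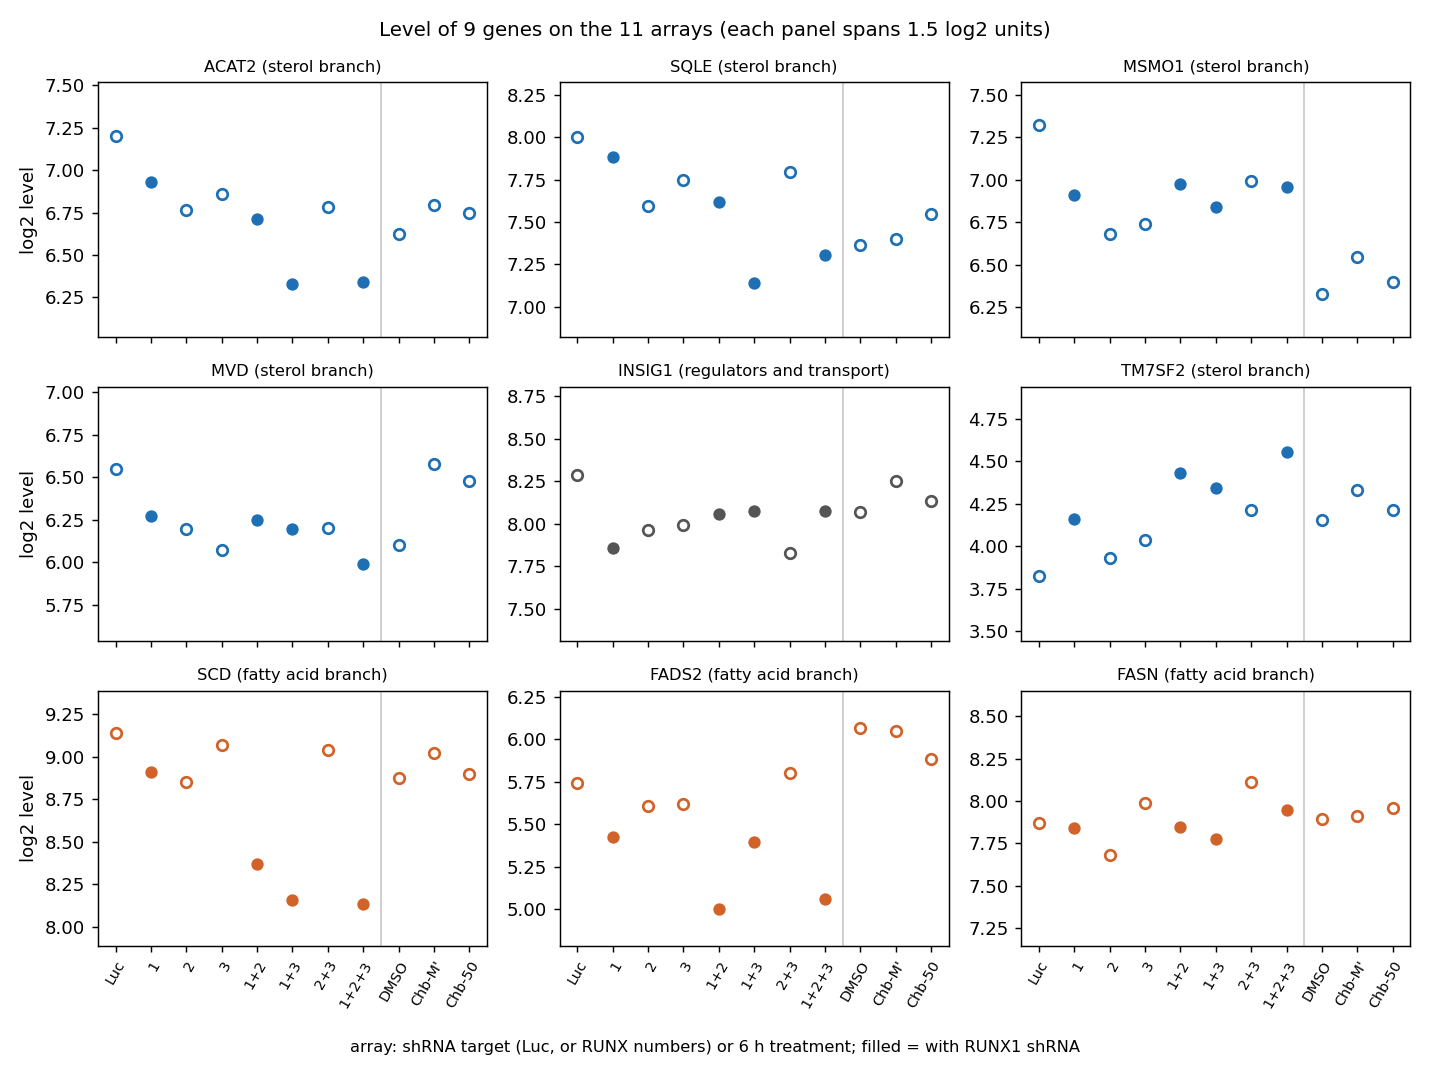
Log2 level (y axis, each panel 1.5 log2 units high) of 9 of the genes on the 11 arrays (x axis), 1 point per array, filled where the RUNX1 shRNA was present. SCD sits between 8.13 and 8.37 on the 3 arrays with the RUNX1 shRNA and another and between 8.85 and 9.14 on the other 5 knockdown arrays, while ACAT2, SQLE, MSMO1, MVD and INSIG1 are highest among the knockdown arrays on shLuc and TM7SF2 is lowest there.

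Promoter sequence is shown here for some of the genes that carry one of the motifs searched, picked by motif as said below. RefSeq promoters (GRCh38.p14, 250 bases before to 50 after the annotated start) were found for 24 of the 28 genes, all but ACAT2, FDFT1, SQLE and FASN, and both strands were searched. These 24 genes had 33 promoters, and a gene was counted if any of its promoters held the motif. They are not the 24 genes tested, because HSD17B7, CYP51A1 and FADS1 are among them and ACAT2, SQLE and FASN are not. The NF-Y box CCAAT was in 19 of these 24 (79.2%) against 39.7% of 27305 genes in the promoter table, and in 12 of 14 sterol genes (85.7%) and 4 of 6 fatty acid genes (66.7%). The RUNX motif TGTGGT was in 4 of 24 (16.7%), namely MVD, IDI1, LSS and SCD, against 15.6% of all genes, a share near the background. The SREBP element TCACNCCAC was found in SREBF2 alone (4.17% of the 24, against 1.39%), and the E-box TCACGTGA in INSIG1 alone (4.17%, against 1.18%). These motifs do not overlap one another in the stretches printed. A match describes letters, not bound sites.

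In the sequences that follow, written 5′ to 3′ on the gene's strand and ending upstream of the RefSeq start, capitals mark the NF-Y box (CCAAT, or ATTGG where it lies on the other strand), the RUNX motif (TGTGGT) and, in SREBF2, the SREBP element. SCD is at chr10:100346983-100347232 (plus strand), MVD at chr16:88663092-88663341 (minus strand), LSS at chr21:46228885-46228984 (minus strand), IDI1 at chr10:1049190-1049249 (minus strand), SREBF2 at chr22:41832955-41833024 (plus strand) and MSMO1 at chr4:165327479-165327658 (plus strand). SCD, MVD, LSS and IDI1 are shown as the 4 genes with a RUNX motif, SREBF2 for its SREBP element, and MSMO1 for its 4 NF-Y boxes. Other genes with an NF-Y box, among them MVK, FADS2, TM7SF2, EBP and ACACA, are not printed, nor is INSIG1 with its E-box. MVK held more NF-Y boxes than MSMO1, so MSMO1 is an example and not the gene with the most.
SCD: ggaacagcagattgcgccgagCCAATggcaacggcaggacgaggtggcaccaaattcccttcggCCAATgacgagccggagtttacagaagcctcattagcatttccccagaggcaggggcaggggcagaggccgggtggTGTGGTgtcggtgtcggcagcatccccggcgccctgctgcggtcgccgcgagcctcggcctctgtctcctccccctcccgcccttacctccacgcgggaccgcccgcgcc
MVD: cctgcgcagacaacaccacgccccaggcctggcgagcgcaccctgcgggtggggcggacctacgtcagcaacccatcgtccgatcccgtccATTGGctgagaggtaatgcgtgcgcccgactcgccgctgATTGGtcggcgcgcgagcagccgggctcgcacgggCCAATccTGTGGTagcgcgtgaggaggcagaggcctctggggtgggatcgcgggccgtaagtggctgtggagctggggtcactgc
LSS: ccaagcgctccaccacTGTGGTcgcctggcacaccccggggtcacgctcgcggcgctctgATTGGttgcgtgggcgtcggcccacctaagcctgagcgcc
IDI1: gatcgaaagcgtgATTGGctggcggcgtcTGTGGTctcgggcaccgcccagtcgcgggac
SREBF2: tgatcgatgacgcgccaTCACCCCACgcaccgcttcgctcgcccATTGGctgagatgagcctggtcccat
MSMO1: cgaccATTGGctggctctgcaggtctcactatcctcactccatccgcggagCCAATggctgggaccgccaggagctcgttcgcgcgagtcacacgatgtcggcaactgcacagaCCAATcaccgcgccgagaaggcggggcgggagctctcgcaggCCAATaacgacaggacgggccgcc
The RUNX motif began 110 bases before the start of SCD, 78 before that of MVD, 194 before that of LSS and 101 before that of IDI1. IDI1 had more than 1 promoter in the search, and the motif was only in the one printed. In MVD it lay next to an NF-Y box. Neither FADS2 nor TM7SF2, whose levels are described with that of SCD, held the RUNX motif in its window.

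Against the luciferase control, the median sterol gene lay lower on all 7 RUNX knockdown arrays, by more than the median fatty acid gene on 6 of them and by about as much on shRUNX1. With single shRNAs, the median difference of the 14 sterol genes from shLuc was -0.08 (shRUNX1), -0.19 (shRUNX2) and -0.26 (shRUNX3). With pairs it was -0.28 (shRUNX1+shRUNX2), -0.35 (shRUNX1+shRUNX3) and -0.19 (shRUNX2+shRUNX3), and in the triple knockdown -0.24. For the 6 fatty acid genes the medians were -0.08, -0.10, -0.08, -0.12, -0.12, 0.11 and -0.10 in the same order. Over all genes tested these medians were within 0.01 of 0. The 7 differences share the single shLuc array, so a high or low reading of a gene on it enters each of them, and nothing about agreement between arrays can be read from them.

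The shLuc reading was the highest of the 8 knockdown arrays for 12 of the 24 genes, against 13.7% of all genes tested. These were 8 of the 14 sterol genes (ACAT2, HMGCS1, MVK, MVD, IDI1, SQLE, LSS and MSMO1), 1 of the 6 fatty acid genes (SCD) and 3 of the 4 regulators and transport genes (SREBF1, SREBF2 and INSIG1). The 12 gaps to the next array ran from 0.02 (MVK) to 0.33 (MSMO1). This way of counting was chosen after the values were seen. Of the cell cycle lists, 8 of 20 genes for S phase and 13 of 19 for mitosis were also highest on shLuc, and the part of cell cycle RNA in the sterol readings was not tested. For TM7SF2, a sterol reductase, shLuc was the lowest of the 8, as for 13.1% of all genes.

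MSMO1, which removes methyl groups from sterols, read 7.32 on shLuc and 6.91, 6.68, 6.74, 6.97, 6.84, 6.99 and 6.96 on the singles (shRUNX1, shRUNX2, shRUNX3), the pairs (shRUNX1+shRUNX2, shRUNX1+shRUNX3, shRUNX2+shRUNX3) and the triple knockdown. The 7 RUNX knockdown arrays thus fell in a band of 6.68 to 6.99 with the control alone above it. MVD, which makes isopentenyl diphosphate, read 6.55 on shLuc and 6.27, 6.20, 6.07, 6.25, 6.20, 6.20 and 5.99 on the same arrays, a gap of 0.28 to the nearest. INSIG1, whose protein retains the SREBPs and which is itself a sterol-responsive gene, read 8.29 on shLuc and 7.86, 7.96, 7.99, 8.06, 8.08, 7.83 and 8.08, a gap of 0.21. With 1 control array, a high reading of that array and a drop with every RUNX shRNA cannot be told apart.

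At least 1.5-fold below shLuc lay no gene on shRUNX1 (1.23% of all genes tested), shRUNX3 (0.856%) or shRUNX2+shRUNX3 (0.766%). On shRUNX2 it was MSMO1 alone (0.675%), at -0.64. On shRUNX1+shRUNX2 they were SCD at -0.78 and FADS2 at -0.74 (1.60%). On shRUNX1+shRUNX3 they were SCD at -0.98, ACAT2 at -0.87, SQLE at -0.86, SREBF1 at -0.61 and IDI1 at -0.60, 5 of 24 genes against 4.96% of all. The triple knockdown had SCD at -1.01, a 2.01-fold lower level, ACAT2 at -0.86, SQLE at -0.70, FADS2 at -0.68 and IDI1 at -0.59 (4.27%). All of the arrays with more than 1 such gene carried the RUNX1 shRNA with another. At least 1.5-fold above shLuc lay TM7SF2 alone, at 0.61 on shRUNX1+shRUNX2 (2.31% of all genes) and 0.73 on the triple knockdown (3.61%). On shRUNX1 (1.10% of all genes), shRUNX2 (0.766%), shRUNX3 (0.683%), shRUNX1+shRUNX3 (3.34%) and shRUNX2+shRUNX3 (0.724%) none did. These are differences between single arrays, with no test.

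**Figure D2:**
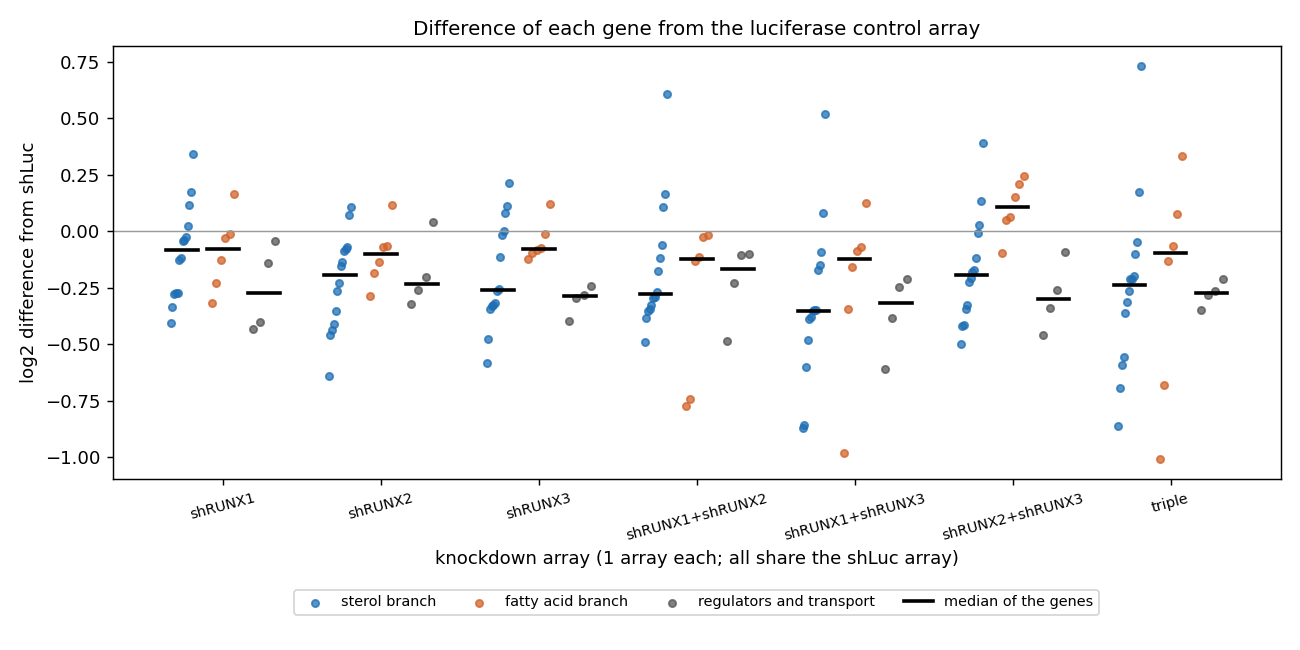
Log2 difference of each gene from the shLuc array (y axis) on the 7 RUNX knockdown arrays (x axis), 1 point per gene, coloured by branch, with black bars at the medians. Sterol medians lie between -0.35 and -0.08 and fatty acid medians between -0.12 and 0.11; the fatty acid points below -0.5 are SCD on 3 arrays and FADS2 on 2, and the highest sterol point on each array is TM7SF2.

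The RUNX1 shRNA was tested as 4 arrays with it against 4 without, in an additive limma fit with the other 2 shRNAs as terms. The lowest estimates were those of SCD and FADS2, both fatty acid desaturases, followed by ACAT2, SQLE, IDI1 and EBP of the sterol branch, while TM7SF2 had the highest. No gene passed an adjusted p of 0.05, neither among the 24 nor among all genes tested (0.00%). At an unadjusted p under 0.05, 6 of the 24 lay lower, against 10.0% of all genes, and 1 lay higher, against 11.2%. Those lower were 3 of 14 sterol genes and 3 of 6 fatty acid genes. The estimate was below 0 for 17 of 24 genes, against 47.2% of all, with a median of -0.07 against 0.01.

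SCD read 8.91 on shRUNX1, 8.37 with the RUNX2 shRNA added, 8.16 with the RUNX3 shRNA added and 8.13 in the triple knockdown, and 9.14, 8.85, 9.07 and 9.04 on shLuc, shRUNX2, shRUNX3 and shRUNX2+shRUNX3. The 3 arrays with the RUNX1 shRNA and another lay well below the rest, and shRUNX1 alone lay inside the range of the arrays without it. The mean was 8.39 ± 0.362 (SD, n = 4) against 9.03 ± 0.122 (SD, n = 4) on the arrays lacking it, an estimate of -0.63 (SE 0.14, a 1.55-fold lower level; limma adjusted p = 0.0978). Leaving out the array labelled shRUNX1 gave an estimate of -0.78 with an adjusted p of 0.0344, and leaving out the array labelled shRUNX1+shRUNX2 gave -0.62 with an adjusted p of 0.18. The share of all genes that passed adjustment in such re-fits is not given here, for SCD or for the genes below.

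FADS2 read 5.42, 5.00, 5.40 and 5.06 on the 4 arrays with the RUNX1 shRNA, in the same order, and 5.74, 5.61, 5.62 and 5.80 on the 4 without. The groups did not overlap. Its estimate was -0.47 (SE 0.101, a 1.39-fold lower level; limma adjusted p = 0.0977), and the adjusted p was 0.0391 without the array labelled shRUNX1 (estimate -0.54) and 0.18 without the array labelled shRUNX1+shRUNX2 (estimate -0.41). EBP, a sterol isomerase, and ACACA, which makes malonyl-CoA, also had all 4 arrays with the shRNA below all 4 without. Such a split was seen for these 3 of 24 genes and for 4.73% of all genes, and the opposite split for 0 of 24 and for 5.15%. Without the array labelled shRUNX1, 6 of 24 genes split this way (12.3% of all genes), with ACAT2, SCD and SREBF1 added, and TM7SF2 split the opposite way (13.4%). Without the array labelled shRUNX1+shRUNX2 the same 3 genes lay below (7.11%) and none above (8.10%). With the shRNA the mean of EBP was 6.82 ± 0.0879 (SD, n = 4) and that of ACACA 6.97 ± 0.0156 (SD, n = 4). On the arrays lacking it the means were 7.06 ± 0.048 (SD, n = 4) and 7.12 ± 0.095 (SD, n = 4). The estimates were -0.25 (limma adjusted p = 0.109) for EBP and -0.15 (limma adjusted p = 0.226) for ACACA, the latter an interval from -0.30 to -0.00. Omitting the array labelled shRUNX1 gave -0.23 (limma adjusted p = 0.0984) for EBP and -0.18 (0.165) for ACACA, and omitting that labelled shRUNX1+shRUNX2 gave -0.28 (0.167) and -0.16 (0.327).

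Of the early sterol enzymes, ACAT2 read 6.93, 6.71, 6.33 and 6.34 with the RUNX1 shRNA and 7.20, 6.77, 6.86 and 6.78 without it. The groups overlapped through shRUNX1 alone. Its estimate was -0.33 (SE 0.1; limma adjusted p = 0.137). IDI1, which isomerises isopentenyl diphosphate, read 5.87, 5.86, 5.55 and 5.55 with and 6.15, 5.99, 5.81 and 5.98 without, and its estimate was -0.27 (SE 0.0701; limma adjusted p = 0.11). IDI1 was lowest on the 2 arrays that carried both the RUNX1 and the RUNX3 shRNA, as were ACAT2 and SQLE. Omitting the array labelled shRUNX1 gave -0.38 (limma adjusted p = 0.0902) for ACAT2 and -0.30 (0.0751) for IDI1, and omitting that labelled shRUNX1+shRUNX2 gave -0.36 (0.214) and -0.29 (0.186). SQLE missed the unadjusted threshold at -0.30 (interval -0.62 to 0.02; limma adjusted p = 0.267).

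TM7SF2 ran the other way. It read 4.16, 4.43, 4.34 and 4.56 with the RUNX1 shRNA and 3.82, 3.93, 4.04 and 4.22 without it, which overlap through shRUNX1 and shRUNX2+shRUNX3. Its estimate was 0.37 (SE 0.057, 1.29-fold; limma adjusted p = 0.0817), and without the array labelled shRUNX1 the adjusted p was 0.0345 (estimate 0.38), but 0.15 without the array labelled shRUNX1+shRUNX2 (estimate 0.34). Its lowest reading, 3.82 on shLuc, was just above the level filter of 3.80.

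Paired by array, the RUNX1 shRNA differences of SCD were -0.23 against shLuc, -0.49 in the presence of the RUNX2 shRNA, -0.91 in that of the RUNX3 shRNA and -0.91 with both. For FADS2 they were -0.32, -0.61, -0.22 and -0.74, so the gene lay lower in all 4 pairs but without the same dependence on the RUNX3 shRNA. SQLE gave -0.12, 0.02, -0.60 and -0.49. MSMO1 gave -0.41, 0.29, 0.10 and -0.04 and INSIG1 -0.43, 0.10, 0.09 and 0.25, lower only where shLuc was the partner for INSIG1 and in 2 of 4 pairs for MSMO1.

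The same arrays carried large cell cycle differences. All 20 S phase genes (median estimate -0.60) and all 19 mitosis genes (median -0.57) lay lower with the RUNX1 shRNA at an unadjusted p under 0.05. Against shLuc, S phase medians were -0.16 for shRUNX1, -0.46 for its pair with shRUNX2, -1.04 for its pair with shRUNX3 and -0.87 for the triple knockdown, the 4 arrays on which SCD was also at -0.23, -0.78, -0.98 and -1.01. On shRUNX2, shRUNX3 and shRUNX2+shRUNX3 the S phase medians were -0.03, -0.00 and -0.05 and the mitosis medians -0.19, -0.08 and -0.14. The sterol medians on these arrays were -0.19, -0.26 and -0.19. Whether the cell cycle shift has a part in the lipid gene values was not tested.

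**Figure D3:**
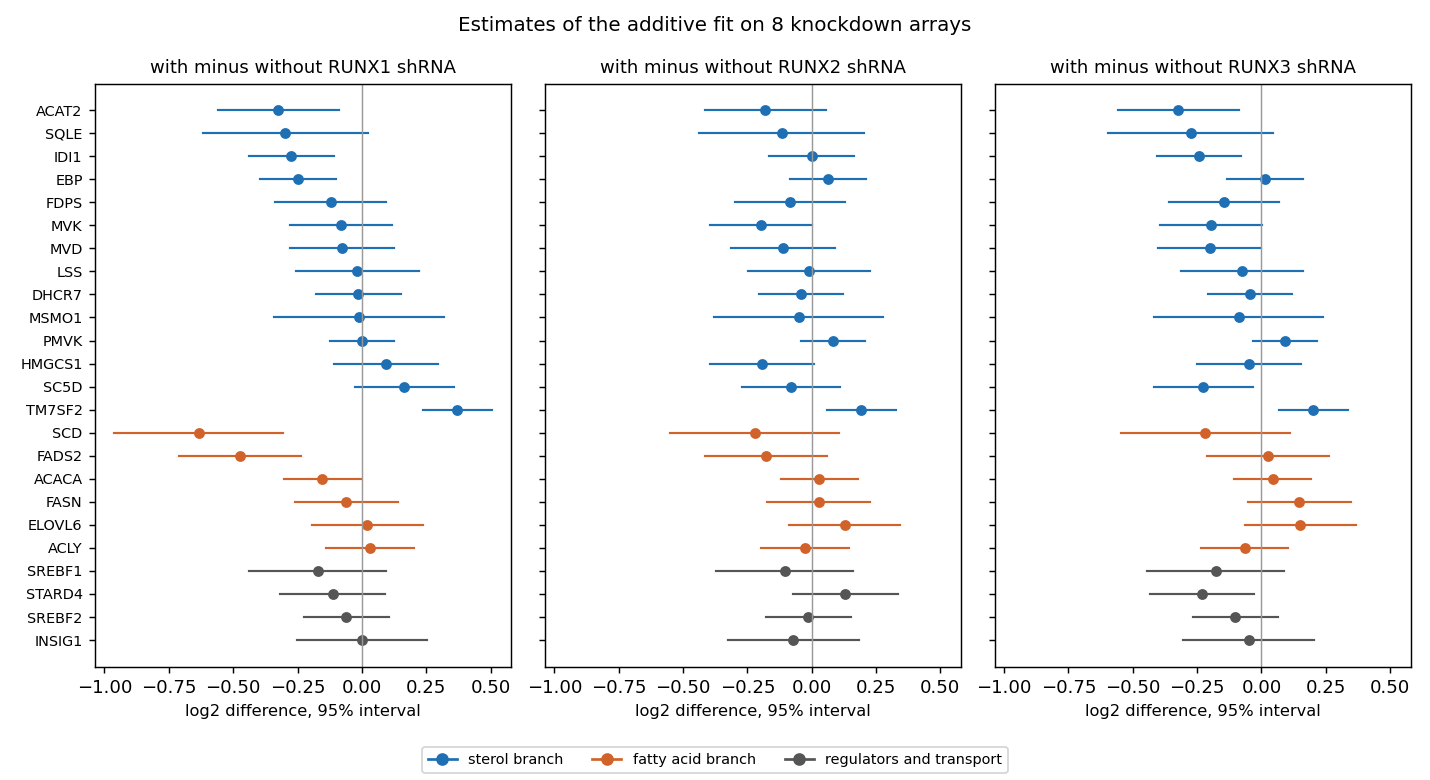
Estimated log2 difference with minus without each RUNX shRNA (x axis) for the 24 genes (y axis, coloured by branch), with 95% intervals from the additive fit on 8 knockdown arrays. For RUNX1, SCD (-0.63) and FADS2 (-0.47) lie farthest below 0 and TM7SF2 (0.37) farthest above; for RUNX3, ACAT2 (-0.32) and SQLE (-0.27) lie lowest; for RUNX2 the estimates run from -0.22 to 0.19.

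With the RUNX3 shRNA the median sterol gene lay lower and the median fatty acid gene slightly higher. The median estimate was -0.12 over the 14 sterol genes and 0.04 over the 6 fatty acid genes, against 0.01 over all genes, and 11 of 14 and 2 of 6 were below 0 (47.9% of all genes). At an unadjusted p under 0.05, 4 of 24 genes lay lower (4.82% of all genes) and 1 higher (4.57%), and none passed after adjustment (0.00%). Those lower were ACAT2 at -0.32 (limma adjusted p = 0.45), IDI1 at -0.24 (adjusted 0.425), SC5D at -0.23 (adjusted 0.502) and STARD4 at -0.23 (adjusted 0.505). SC5D is a late sterol desaturase and STARD4 carries cholesterol between membranes. TM7SF2 lay higher at 0.20 (limma adjusted p = 0.425). SCD was at -0.22, with an interval from -0.55 to 0.11. The difference between the 2 branches has no test here. All 20 S phase genes (median estimate -0.31) and all 19 mitosis genes (median -0.34) also had estimates below 0 with the RUNX3 shRNA. Their part in the sterol values was not tested. Omitting the array labelled shRUNX1 gave -0.27 for ACAT2, -0.22 for IDI1, -0.22 for SC5D, -0.31 for STARD4 and 0.19 for TM7SF2. Omitting that labelled shRUNX1+shRUNX2 gave -0.29, -0.23, -0.18, -0.23 and 0.23, in the same order, with adjusted p of 0.711 or more. Leaving out shLuc brought the count at the unadjusted threshold from 5 to 3.

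Estimates for the RUNX2 shRNA had the narrowest range of the 3, -0.22 to 0.19. The median estimate was -0.05 over the 24 genes, none lay lower at an unadjusted p under 0.05 (1.84% of all genes) and 1 lay higher (3.05%), TM7SF2 at 0.19 (limma adjusted p = 0.965). None passed after adjustment (0.00%). SCD was at -0.22 with an interval from -0.55 to 0.11. MVK, the first mevalonate kinase, was at -0.20 with an interval from -0.39 to 0.00, and HMGCS1, which makes the HMG-CoA of the sterol branch, at -0.19 with an interval from -0.40 to 0.01. These intervals still hold changes as large as several of those fitted for the RUNX3 shRNA.

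Against the number of RUNX genes targeted, 0 to 3, the slope was below 0 for 20 of 24 genes, against 46.8% of all genes. At an unadjusted p under 0.05, 9 of 24 had a negative slope (9.11% of all genes) and 1 a positive one (10.0%), and none passed after adjustment (0.00823%). The steepest were SCD at -0.36 per shRNA (SE 0.097; limma adjusted p = 0.142), ACAT2 at -0.28 (SE 0.0565; limma adjusted p = 0.116) and SQLE at -0.23 (SE 0.0753; limma adjusted p = 0.167). FADS2 at -0.21, IDI1 at -0.17, MVK at -0.16, SREBF1 at -0.15, MVD at -0.13 and FDPS, which makes farnesyl diphosphate, at -0.12 followed. TM7SF2 was at 0.25 (SE 0.0403; limma adjusted p = 0.116). This slope leans on shLuc, the only array with 0 targets. Without it, 4 of the 10 genes at the unadjusted threshold were counted, and without the triple knockdown 6. Of the cell cycle lists, 19 of 20 S phase and 19 of 19 mitosis genes had a negative slope at that threshold.

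Whether the RUNX1 shRNA difference depended on the RUNX3 shRNA was tested as a product term. For SCD the term was -0.55 (SE 0.2, interval -1.04 to -0.06; limma adjusted p = 0.351), and it was the 1 gene of 24 with a negative term at an unadjusted p under 0.05 (6.61% of all genes). STARD4 was the 1 gene with a positive term, at 0.32 (limma adjusted p = 0.387; 6.10%). SQLE was at -0.50 with an interval from -1.01 to 0.01. None passed after adjustment (0.00%). The SCD term was -0.33 (limma adjusted p = 0.523) without the array labelled shRUNX1 and -0.77 (0.143) without that labelled shRUNX1+shRUNX2, and the STARD4 term 0.20 and 0.43. Without shRUNX1+shRUNX3, or without shRUNX2+shRUNX3, no gene of the 24 reached the unadjusted threshold.

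A further count, chosen after the values were seen, set the arrays carrying the RUNX1 shRNA together with another apart from the other 5 knockdown arrays. ACAT2, ACACA, SCD, FADS2 and SREBF1 were lower on all 3 of them than on all 5 others, 5 of 24 genes against 10.4% of all genes. TM7SF2 was higher on all 3 (10.9%). Without the array labelled shRUNX1+shRUNX2, 8 of 24 were lower (17.0% of all genes), with IDI1, SQLE and SREBF2 added, and without the array labelled shRUNX1, 6 were (12.3%), with EBP added. TM7SF2 was higher in both cases (20.1% and 13.4%). With all 8 knockdown arrays, 3 of the 6 fatty acid genes but 1 of the 14 sterol genes, ACAT2, separated downwards. The genes added when either array was left out were of the sterol branch (IDI1, SQLE and EBP) or a regulator (SREBF2). This contrast of the branches thus depends on the arrays kept, and it has no test. ACLY at 9.60, 9.55 and 9.55 on these 3 arrays and 9.53 to 9.79 on the others, FASN at 7.84, 7.78 and 7.94 and ELOVL6, which lengthens palmitate, at 4.51, 4.75 and 4.96 did not separate. Among the fatty acid genes, the separation was thus seen for the 2 desaturases and ACACA, but only SCD lay well apart. The highest SCD reading on these 3 arrays was 8.37, against 8.85 for the lowest of the other 5. For FADS2 the readings were 5.40 against 5.42 and for ACACA 6.978 against 6.981, which are near ties. For ACAT2 they were 6.71 against 6.77.

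No regulator or transport gene had a RUNX1 estimate past the unadjusted threshold. SREBF1 read 5.32 on shLuc and 5.28, 5.06, 5.04, 4.83, 4.71, 5.06 and 4.97 on the same 7 arrays in the order given for MSMO1, lowest on the 3 arrays that carried the RUNX1 shRNA and another. Its RUNX1 estimate was -0.17 with an interval from -0.44 to 0.09 (limma adjusted p = 0.424). SREBF2 stayed between 7.19 and 7.47 over the knockdown arrays, with a RUNX1 estimate of -0.06 and an interval from -0.23 to 0.10. INSIG1 had a RUNX1 estimate of 0.00 (interval -0.25 to 0.25), and STARD4 one of -0.11 (interval -0.32 to 0.09).

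Of 49 further genes of these pathways in 4 lists, 37 were tested. With the RUNX1 shRNA 5 of the 37 lay lower and 7 higher at an unadjusted p under 0.05 (10.0% and 11.2% of all genes), and none passed after adjustment. The largest negative estimates were those of HACD3, a dehydratase of fatty acid elongation, at -0.32 (limma adjusted p = 0.114) and VLDLR, a lipoprotein receptor, at -0.31 (limma adjusted p = 0.167). The largest positive ones were those of ME1, which supplies NADPH, at 0.69 (limma adjusted p = 0.103) and ACSL1, which activates fatty acids with CoA, at 0.62 (limma adjusted p = 0.0817).

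ACSL1 read 5.94 on shLuc, 6.58, 6.85, 7.21 and 7.27 where the RUNX1 shRNA was present, and 6.29, 6.50 and 6.69 on shRUNX2, shRUNX3 and shRUNX2+shRUNX3. It was lowest on shLuc and highest on the triple knockdown, opposite in order to SCD at those ends. With the RUNX3 shRNA, 0 of the 37 lay lower and 5 higher (4.82% and 4.57% of all genes), led by ACSL1 at 0.50 and ERLIN2, an endoplasmic reticulum membrane protein tied to SREBP control, at 0.35, and the lowest were VLDLR and TMEM97, a sterol-binding membrane protein, both at -0.18. With the RUNX2 shRNA, 1 lay lower and 1 higher (1.84% and 3.05% of all genes). ERLIN1, the partner of ERLIN2, was at -0.37, ME1 at -0.32, ACSL1 at 0.22 and ELOVL1, an elongase of very long chains, at 0.15.

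On the slope over RUNX genes targeted, 5 of the 37 were negative and 4 positive at the unadjusted threshold (9.11% and 10.0% of all genes), with HACD3 at -0.19, VLDLR at -0.18, ACSL1 at 0.45 and ERLIN2 at 0.30. On the product term of the RUNX1 and RUNX3 shRNAs, 3 were negative and 2 positive (6.61% and 6.10% of all genes), with ACSL4, another acyl-CoA synthetase, at -0.53, VLDLR at -0.42, ERLIN2 at 0.43 and LPIN1, a phosphatidate phosphatase, at 0.37. None of these passed after adjustment.

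After 6 hours with the conjugates, the median sterol gene lay slightly above DMSO, and the fatty acid genes lay on both sides of it. The median difference of the 14 sterol genes was 0.17 with Chb-M' and 0.11 with Chb-50, and that of the 6 fatty acid genes 0.00 and 0.01, against 0.02 and 0.00 over all genes. Of the 14 sterol genes, 1 lay below DMSO with Chb-M' (44.5% of all genes) and 2 with Chb-50 (49.0%). Of the 6 fatty acid genes, 3 and 2 did. Both differences use the single DMSO array, and their intervals borrow the spread of the knockdown arrays, which assumes that the 6-hour arrays vary alike.

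With Chb-M', 4 of 24 genes were higher at an unadjusted p under 0.05 (6.31% of all genes) and 1 was lower (7.59%), and none passed after adjustment (0.609%). MVK read 3.93 with DMSO, 4.80 with Chb-M' and 4.50 with Chb-50, and the DMSO reading was the lowest of all 11 arrays. Its difference was 0.87 with Chb-M' (interval 0.48 to 1.27; limma adjusted p = 0.0824) and 0.57 with Chb-50 (interval 0.18 to 0.97; limma adjusted p = 0.366). LSS, which closes squalene epoxide into lanosterol, read 5.37, 5.95 and 5.92 in the same order, above its knockdown range of 5.19 to 5.54 with either compound. Its differences were 0.58 with Chb-M' (limma adjusted p = 0.27) and 0.55 with Chb-50 (limma adjusted p = 0.474).

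MVD read 6.10, 6.58 and 6.48, differences of 0.47 with Chb-M' (limma adjusted p = 0.284) and 0.37 with Chb-50 (interval -0.03 to 0.78). EBP read 7.11, 7.44 and 7.42, differences of 0.33 with Chb-M' (limma adjusted p = 0.304) and 0.32 with Chb-50 (limma adjusted p = 0.517). These are the 4 genes higher with Chb-M' at the unadjusted threshold. HMGCS1 lay the other way, at 6.47, 6.22 and 6.23, with intervals from -0.66 to 0.15 and from -0.65 to 0.16.

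ACACA was the 1 gene lower with Chb-M' at the unadjusted threshold. It read 6.77 with DMSO, 6.33 with Chb-M' and 6.55 with Chb-50, differences of -0.44 (interval -0.74 to -0.15; limma adjusted p = 0.185) and -0.22 (interval -0.52 to 0.08). ACACA is also the longest of the 24 genes, at 322 kb in RefSeq. Of 556 tested genes over 200 kb, 53.2% were lower with Chb-M' at an unadjusted p under 0.05 (median -0.39), against 5.35% of the 11465 shorter ones, and with Chb-50 the shares were 34.7% (median -0.24) and 3.77%. The part of gene length in the ACACA value was not tested. The other fatty acid genes, SCD at 8.87, 9.02 and 8.90 and FASN at 7.89, 7.91 and 7.96 among them, gave intervals that held 0.

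With Chb-50, 3 of 24 genes (MVK, LSS and EBP) were higher at an unadjusted p under 0.05 (3.94% of all genes) and none was lower (5.24%), and none passed after adjustment (0.00%). Compared directly, at the same dose and time, the compounds differed at that threshold for 1 gene of 24, with 3.33% of all genes lower and 3.82% higher with Chb-M' and none past adjustment (0.00%). It was ELOVL6, which read 4.75 with Chb-M' and 5.19 with Chb-50, a difference of -0.44 (interval -0.87 to -0.01; limma adjusted p = 0.688). The DMSO array read 4.83. For MVK the direct difference was 0.30 (interval -0.10 to 0.70), for LSS 0.03 (interval -0.44 to 0.51), for EBP 0.01 (interval -0.28 to 0.31) and for ACACA -0.22 (interval -0.52 to 0.07). The lowest bound over the 24 genes was that of ELOVL6 and the highest, 0.81, that of MSMO1.

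**Figure D4:**
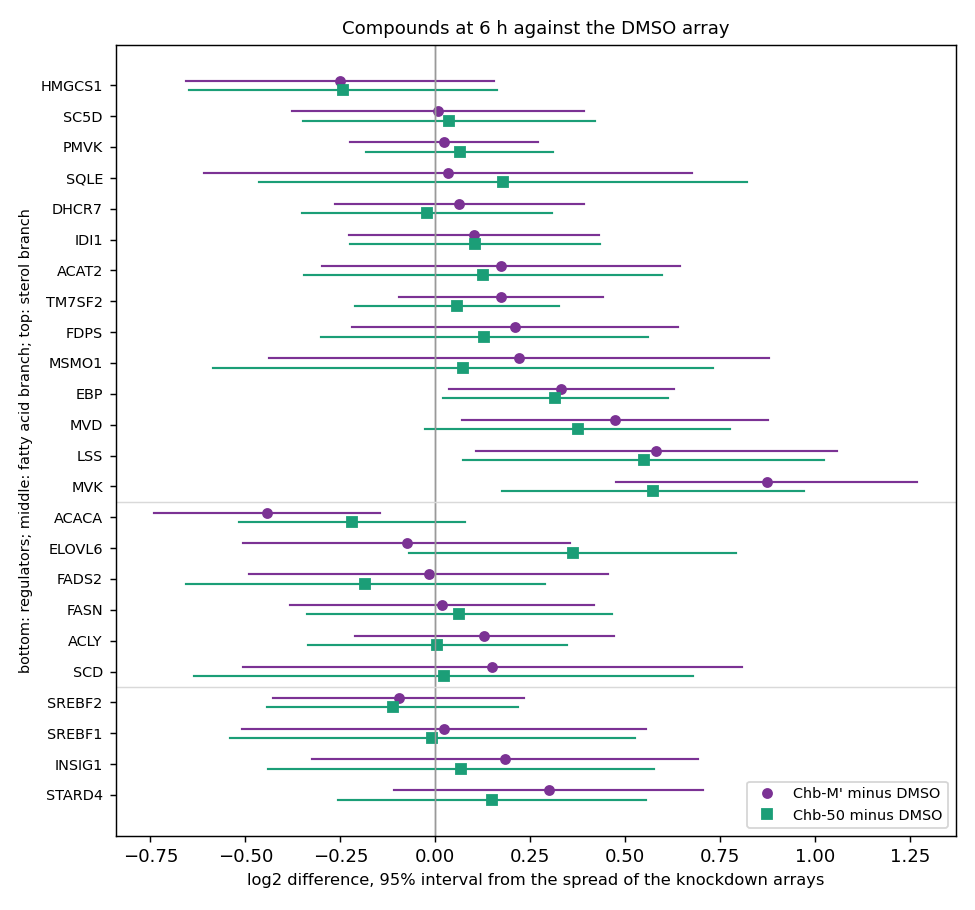
Log2 difference from the DMSO array after 6 hours (x axis) for the 24 genes (y axis), with Chb-M' as circles and Chb-50 as squares and 95% intervals from the spread of the knockdown arrays. MVK (0.87 and 0.57) and LSS (0.58 and 0.55) lie farthest above 0, and ACACA with Chb-M' (-0.44) lies farthest below.

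Beside these values, mitosis genes lay lower with either compound (medians -0.61 with Chb-M' and -0.53 with Chb-50) and S phase genes higher (0.37 and 0.20), and their part in the sterol values was not tested. Of the 37 further pathway genes, 0 lay lower and 1 higher with Chb-M' at the unadjusted threshold (7.59% and 6.31% of all genes), and 3 lower and 0 higher with Chb-50 (5.24% and 3.94%), none past adjustment. MYLIP, a ubiquitin ligase induced by LXR, was at 0.33 with Chb-M' and TMEM97 at 0.25, while ME1 was at -0.64 and ABCA1, a cholesterol exporter, at -0.42. With Chb-50, ME1 was at -0.57, GPAM, which starts triglyceride synthesis, at -0.52, ACACB at 0.16 and TMEM97 at 0.15. GPAM was also the gene with the largest direct difference, 0.64 higher with Chb-M' (limma adjusted p = 0.571), ahead of STARD3 at 0.23, with NR1H3 at -0.23 and ACAT1 at -0.15 at the other end.

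The control arrays of the 2 experiments differed as well. MVK lay 1.17 higher on shLuc than on DMSO, MSMO1 0.99, IDI1 0.69 and SQLE 0.63, the 4 of 24 genes at least 1.5-fold higher on shLuc (2.28% of all genes), and none was at least 1.5-fold lower (3.35%). The MVK value rests on its DMSO reading of 3.93, near the level filter. The median was 0.24 over the sterol genes and -0.00 over the fatty acid genes. It was 0.36 over the S phase genes and 0.12 over the mitosis genes, whose part in the sterol values was not tested. MSMO1, ACACA and SREBF2 read lower on all 3 arrays at 6 hours than on all 8 knockdown arrays (3 of 24 genes, against 8.31% of all), and PMVK and FADS2 higher (2 of 24, against 7.83%). Transduction, doxycycline and time cannot be told apart in this contrast. Sterol genes were thus higher on shLuc than on the 7 RUNX knockdown arrays and higher than on DMSO, by medians, which are descriptions of single arrays.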

How the data were processed

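Total RNA of 11 MV4-11 cultures, 1 array per condition, was read on an Affymetrix array. The authors deposited 1 log2 value per cluster and array. Transcriptome Analysis Console 1.0, RMA and Affymetrix Expression Console 1.3.1 are named, with no role or order, per the submitters' processing notes. No source used here names the genome build of the array annotation, and signal over background is unknown, so the number of arrays limits the precision.

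Of 53617 clusters, 23558 had 1 gene symbol, 2155 several and 27904 none listed. For the 618 genes with more than 1 such cluster the one with the highest mean was used. Genes reaching the median of all 1-symbol values (3.80) on some array were tested (12147 of 22109). limma 3.58.1 in R 4.3.3 (lmFit, eBayes) was fitted over all genes tested, on the 8 knockdown arrays with 3 additive shRNA terms (4 residual and 3.19 prior degrees of freedom), with a RUNX1 by RUNX3 product term (3 residual), with the number of targets (6 residual), and on all 11 arrays for the compounds. The p-values were Benjamini-Hochberg adjusted over all genes tested, with a threshold of 0.05. With no replicate of any condition, the spread comes from arrays of different conditions, may be technical, and includes interactions between shRNAs. The fits were tested on simulated data.

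The 28 genes, the lists and the tests were chosen with earlier results of these data known. All 28 could be named, and of the 4 further lists the 2 largest positive and 2 largest negative estimates in each comparison. Alternatives changed the filter, the cluster choice, the normalization, the variance prior, the model terms, the fold and the control, and left out each knockdown array in turn. Motif letters were searched in RefSeq promoters of GRCh38.p14.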

Additional observations from a re-analysis of the deposited data

How the results depend on the processing

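Of the single-gene estimates re-fitted under the alternatives, 464 kept their direction and their side of the adjusted threshold and 8 came to pass it; none reversed. With pairwise interaction terms, SCD and FADS2 passed for the RUNX1 shRNA (2 genes, against 0), and leaving out 1 array gave 0 to 3, the 3 being SCD, FADS2 and TM7SF2 without shRUNX1. For the slope, leaving out 1 array gave 0 to 3 past adjustment, the 3 being ACAT2, SCD and TM7SF2 without shRUNX2+shRUNX3. The shares of all genes that passed in these re-fits are not given here, so the counts cannot be set against a background. The pairwise fit has nearly as many terms as arrays, which leaves little to estimate the spread from.

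Counts at the unadjusted threshold moved more. The stricter level filter, which tests fewer of the genes by construction, gave 3 for the RUNX3 shRNA (5 in the report), 5 for the slope (10), 3 for Chb-M' (5), 1 for Chb-50 (3) and 0 for the direct difference of the compounds (1). For the RUNX2 shRNA (1 in the report), centring the arrays gave 3, an intensity trend 2 and pairwise terms 4. With no level filter the product term had 1 gene (2). Quantile normalization and an intensity trend each gave 0 for the direct difference. Leaving out 1 array gave ranges of 6 to 9 for the RUNX1 shRNA, 1 to 5 for the RUNX2 shRNA (5 without shRUNX1+shRUNX3), 3 to 7 for the RUNX3 shRNA (3 without shLuc), 4 to 10 for the slope (4 without shLuc), 0 to 3 for the product term (0 without shRUNX1+shRUNX3 or shRUNX2+shRUNX3), 4 to 5 for Chb-M', 2 to 4 for Chb-50 and 0 to 1 for the direct difference (0 without shLuc, shRUNX1, shRUNX2, shRUNX1+shRUNX3 or shRUNX2+shRUNX3). Alternatives chosen after seeing the data left out the 2 arrays with doubted target readings: the split by RUNX1 shRNA then held 3 to 6 genes below (3 in the report) and 0 to 1 above (0), and the split by RUNX1 shRNA with another held 6 to 8 below (5) and 1 above. The cause of these shifts was not tested.

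At 2-fold instead of 1.5-fold from shLuc, 1 gene was counted on the triple knockdown (6 at 1.5-fold), 0 on shRUNX1+shRUNX3 (5), 0 on shRUNX1+shRUNX2 (3) and 0 on shRUNX2 (1). Against the mean of the 4 arrays without the RUNX1 shRNA, 2 were counted on the triple knockdown and 2 on shRUNX1+shRUNX3. No paired analysis was possible because the replicate numbers pair nothing: each condition has 1 array and all are numbered 1. The array pairs in the report that differ by 1 shRNA come from the factorial design. Limits are the lack of any replicate, the single control array of each experiment and the target readings of 2 arrays.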
